A study of Mus musculus with 96 samples.

Results

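The 7 major histocompatibility complex (MHC) class II genes examined here were Cd74, H2-Aa, H2-Ab1, H2-Eb1, H2-DMa, H2-DMb1 and Ciita, chosen by their gene symbols among the 32594 genes of the count tables. Each symbol was found once in the tables. The counts came from bulk mRNA sequencing of the ipsilateral hippocampus, thalamus and hypothalamus of male C57BL/6 mice obtained at 8 to 10 weeks of age. Mice underwent controlled cortical impact, a piston-driven contusion of the cortex (TBI), or a sham operation with scalp incision and anaesthesia but no craniectomy. Both were combined with vehicle (VH) or candesartan (CD), a blocker of the angiotensin II type 1 receptor, at 0.1 mg/kg/day. Brains of each of the 4 groups, abbreviated TBI + VH, TBI + CD, Sham + VH and Sham + CD, were collected 3 days after injury (3 dpi) or 29 days after it (29 dpi), giving 24 groups of 4 libraries and 96 libraries in all. Every animal was injected first at 6 h; the 3 dpi cohort was injected again at 24 and 48 h, and the 29 dpi cohort received a subcutaneous osmotic pump at 24 h. The sham operation without craniectomy means that the effect of opening the skull and that of the impact cannot be told apart, and the 4 libraries of a group were those with the best RNA. No label says that the libraries of a group came from separate mice, so p-values measure the spread between these samples only.

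MHC class II molecules present peptides from engulfed proteins to CD4+ T cells. An alpha and a beta chain are assembled with the invariant chain CD74, carried to endosomes, and loaded with peptide there by the exchange factor H2-DM. Class II genes are switched on by the transactivator CIITA, which binds no DNA itself but is recruited by the RFX, CREB and NF-Y factors sitting on the X and Y boxes of class II promoters. In the brain these genes are known from microglia, from macrophages and dendritic cells of the meninges, choroid plexus and perivascular spaces, and from leukocytes that enter after injury.

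The genes of the chains and of H2-DM lie together in the MHC on chromosome 17 (GENCODE vM21, GRCm38). H2-Aa, the A alpha chain, lies at chr17:34282744-34287823 on the minus strand. On the plus strand lie H2-Ab1, the A beta chain, at chr17:34257689-34269419, and H2-Eb1, the E beta chain, at chr17:34305867-34316674. The H2-DM alpha chain gene H2-DMa (chr17:34119541-34139101) and the beta chain gene H2-DMb1 (chr17:34153072-34160230) are also on the plus strand, and Ciita lies outside the cluster at chr16:10480059-10528418. C57BL/6 mice are known to lack the E alpha chain that partners H2-Eb1, and its gene, listed as H2-Ea-ps, had a count of 0 in all 96 libraries.

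The RefSeq table of gene starts (GRCm38.p6) held windows for H2-Aa, H2-Eb1, H2-DMb1 and H2-DMa. The windows of H2-Aa and H2-Eb1 are shown because these genes rose together after injury and carry both class II boxes at similar spacing. That of H2-DMa is shown because this gene was the member not called after injury in hippocampus at 3 dpi. Capitals mark the X box core searched as GNAAC and the Y box searched as TGATTGG, and each sequence runs 5′ to 3′ in the direction of the gene. Those of H2-Aa and H2-Eb1 end at the base before the gene's start. The RefSeq starts of H2-DMa lie inside the GENCODE interval given above, so its windows are internal to that annotation. Annotated exon bases of any protein-coding gene, on either strand, were trimmed from the sequence shown.
H2-Aa, chr17:34287824-34288073, minus strand: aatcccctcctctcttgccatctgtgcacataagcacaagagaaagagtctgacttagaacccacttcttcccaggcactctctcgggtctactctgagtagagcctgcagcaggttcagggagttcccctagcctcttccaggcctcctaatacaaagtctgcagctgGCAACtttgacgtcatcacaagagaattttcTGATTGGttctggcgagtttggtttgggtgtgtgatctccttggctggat
H2-Eb1, chr17:34305617-34305866, plus strand: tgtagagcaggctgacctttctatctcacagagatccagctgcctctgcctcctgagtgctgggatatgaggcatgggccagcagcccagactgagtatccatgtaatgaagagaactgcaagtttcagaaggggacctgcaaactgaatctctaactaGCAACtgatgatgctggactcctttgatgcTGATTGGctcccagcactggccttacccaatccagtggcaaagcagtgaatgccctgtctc
H2-DMa, chr17:34122635-34122821, plus strand: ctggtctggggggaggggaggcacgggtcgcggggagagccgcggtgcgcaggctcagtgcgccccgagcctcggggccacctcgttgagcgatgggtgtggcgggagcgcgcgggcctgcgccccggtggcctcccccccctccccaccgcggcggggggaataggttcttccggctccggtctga
In H2-Aa the X core began 81 bases before the start and was followed after 26 bases by the Y box. In H2-Eb1 it began 91 bases before the start, with 25 bases between the boxes, and in H2-DMb1 94 bases before the RefSeq start, with 26 bases between them, a position that lies inside the GENCODE interval of that gene. Searched on both strands of the 250 bases before each start, TGATTGG occurred in 7.23% of 32851 windows and GNAAC in 79.6%, and GNAAC followed by TGATTGG after 20 to 30 bases in 0.271% (89 windows). That spacing was set after the class II windows had been seen. The related genes H2-Oa, H2-Ob and H2-Eb2 held the pair too. H2-DMb2 held TGATTGG and GNAAC but not the pair, and neither window listed for H2-DMa held TGATTGG, which says nothing of other starts of that gene. A match is a description of letters, not a measured site, and whether the boxes bear on the response to injury was not tested.

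In uninjured tissue the class II genes were low, and H2-DMa was the most abundant transcript per length in the hippocampus. Levels of different genes were compared as normalised read counts (CPM, counts scaled to a TMM-adjusted library size) per kilobase of exons. In the hippocampus of Sham + VH mice at 3 dpi, H2-DMa measured 4.39 ± 0.389 CPM per kilobase (SD, n = 4), and Cd74, the invariant chain, 1.49 ± 1.11. H2-DMb1 followed at 0.848, H2-Eb1 at 0.632, H2-Aa at 0.328 and H2-Ab1 at 0.322 CPM per kilobase. From Cd74 down to H2-Ab1, neighbours in this order did not differ beyond their spread. Ciita came last, at 0.0106 CPM per kilobase at 3 dpi.

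H2-DMa was the member called between regions in uninjured tissue. In Sham + VH thalamus it measured 2.27 ± 0.0722 CPM per kilobase at 3 dpi, and in Sham + VH hypothalamus 1.96 ± 0.28. The 3 regions were compared in the Sham + VH libraries by edgeR, counting a gene as called at an FDR below 0.05 with a log2 fold change beyond 0.32 in either direction. The regions may come from the same brains, a pairing that the labels do not give, and the fit treats libraries as independent. Between hippocampus and thalamus, where 40.9% of all genes tested at 3 dpi and 39.3% at 29 dpi were called, H2-DMa was the 1 member called, higher in hippocampus by 0.98 ± 0.10 (log2 fold change ± SE, FDR = 2.45e-11) and 1.04 ± 0.09 (FDR = 2.25e-13). Between hippocampus and hypothalamus (46.7% and 45% of genes called) it was again the 1 member called, higher by 1.21 at 3 dpi (FDR = 4.54e-14) and 1.0 at 29 dpi (FDR = 4.63e-13). Between thalamus and hypothalamus (28.6% and 32.9% called) edgeR and DESeq2 called 0 members at either time point. At 3 dpi 1 member, and at 29 dpi 0 members, had an unadjusted p below 0.05. Among all genes, 8980 of 17788 at 3 dpi and 9516 of 17935 at 29 dpi had such a p by edgeR. The 29 dpi fit tested 6 members, since Ciita did not pass its filter on low counts. H2-DMa shares 360 exon bases (10.4% of its exons) with Brd2 on the opposite strand. Brd2 was also higher in the hippocampus, at 244.5 to 260.1 CPM against 198 to 219.9 in thalamus and 185.2 to 195.1 in hypothalamus (Sham + VH, 3 dpi). Reads from the antisense strand enter the count only if it ignored strand, a setting not given in the sources used here, and their part in the regional difference was not tested.

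Cd74 ran the other way, highest in the hypothalamus. In Sham + VH mice at 3 dpi it measured 1.49 ± 1.11 CPM per kilobase in hippocampus, 1.44 ± 0.346 in thalamus and 2.56 ± 0.874 in hypothalamus. At 29 dpi the corresponding levels were 1.66 ± 1.21, 1.73 ± 0.591 and 3.07 ± 0.426. The difference between hippocampus and hypothalamus, -0.72 on the log2 scale at each time point, was not called (FDR = 0.119 and 0.148). One library decided this at 3 dpi: without Sham + VH hippocampus replicate 4, 5 members were called in place of 1, adding Cd74, H2-Aa, H2-Ab1 and H2-Eb1, all lower in hippocampus. Without Sham + VH hippocampus replicate 3, or Sham + VH hypothalamus replicate 2, H2-DMb1 was added instead. At 29 dpi, leaving out Sham + VH hippocampus replicate 1 added Cd74. When only the libraries compared entered the fit, Cd74 was called between thalamus and hypothalamus at both time points.

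**Figure D1:**
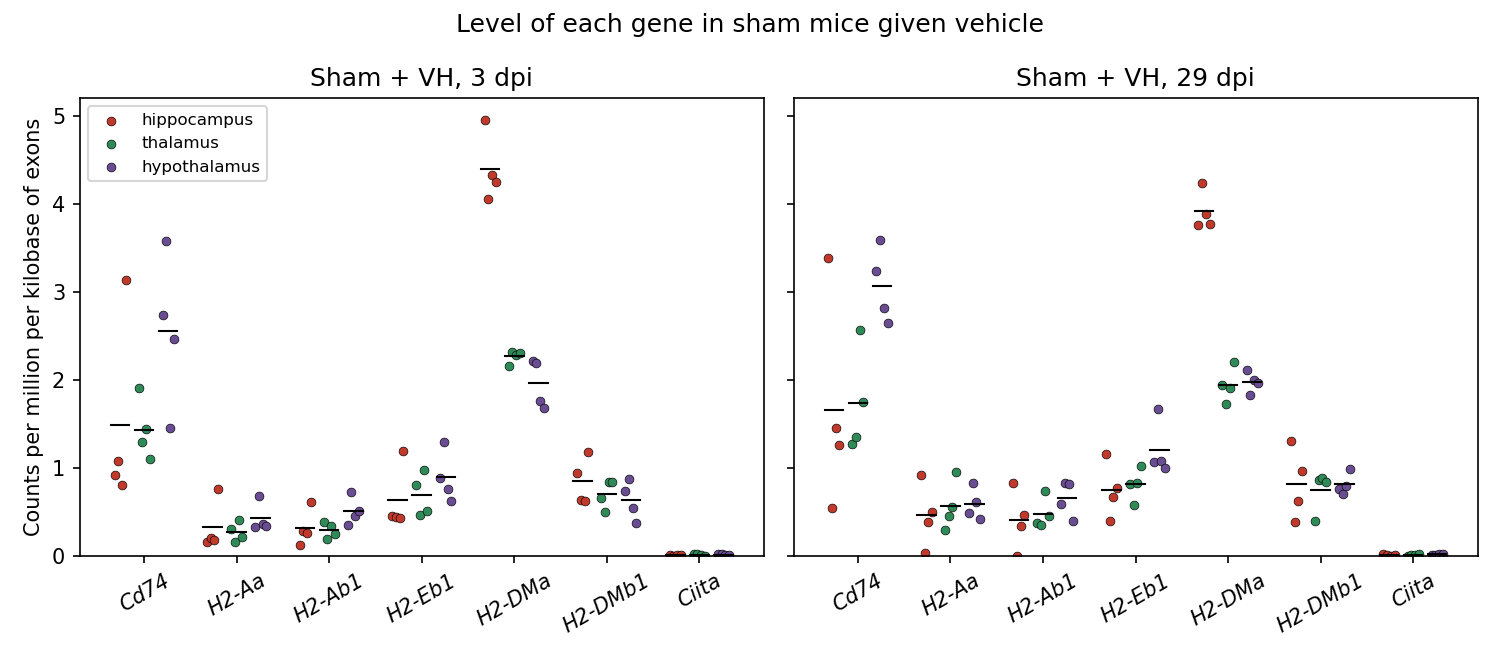
Level of each class II gene in Sham + VH libraries, in CPM per kilobase of exons on the vertical axis, at 3 and 29 dpi, with points for libraries and a line for the mean of 4. H2-DMa stands at 4.39 in hippocampus at 3 dpi against 2.27 in thalamus and 1.96 in hypothalamus, and Cd74 is highest in hypothalamus.

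Injury raised Cd74, H2-Aa, H2-Ab1, H2-Eb1 and H2-DMb1 in the hippocampus at 3 dpi. Ciita was called as well, but it passed the filter on low counts through the injured libraries in which it was high, so its call adds no support to the counts of members here. Each comparison with Sham + VH uses the same 4 control libraries, and TBI + CD against Sham + VH changes injury and drug at once. For TBI + VH against Sham + VH, 10.7% of 16756 genes tested were called and 8.99% were higher, against 6 of 7 members, all higher. For TBI + CD against Sham + VH, 12.1% were called and 10.3% were higher, against 6 of 7 members. Over both drug arms together, 15.8% of genes were called and 13.3% were higher, and 6 of 7 members were higher. H2-DMa was the exception in each comparison. In bulk tissue, a change in the number of cells of a type and a change in RNA per cell cannot be told apart.

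H2-Ab1, the A beta chain, showed the greatest rise of the 7. Its levels were 0.333, 0.734, 0.676 and 1.57 CPM in Sham + VH, in the order of replicates 1 to 4, and 0.331, 0.33, 0.254 and 0.307 CPM in Sham + CD. They were 3.62, 3.19, 4.6 and 2.52 CPM in TBI + VH, and 6.67, 3.3, 4.59 and 4.03 CPM in TBI + CD. All 8 injured libraries lay above all 8 sham libraries, and Sham + VH replicate 4 was the highest sham library. The log2 fold change was 2.06 ± 0.33 in TBI + VH (FDR = 0.000256) and 2.46 ± 0.32 in TBI + CD (FDR = 3.33e-05), both against Sham + VH. Averaged over the drug arms, injury raised H2-Ab1 7.84-fold (2.97 ± 0.25, FDR = 7.35e-08).

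H2-Aa, the partner alpha chain, had 0.625, 0.777, 0.676 and 2.9 CPM in Sham + VH, and 0.71, 0.413, 0.61 and 0.219 CPM in Sham + CD. It had 3.96, 2.5, 4.64 and 3.54 CPM in TBI + VH, and 7.64, 2.71, 4.85 and 5.3 CPM in TBI + CD. Replicate 4 of Sham + VH stood apart from the other 3 and overlapped the lower injured libraries. H2-Aa rose by 1.55 ± 0.42 in TBI + VH (FDR = 0.0195), by 2.01 ± 0.42 in TBI + CD (FDR = 0.0025) and 5.53-fold over both arms (2.47 ± 0.32, FDR = 1.28e-05). The call in TBI + VH rested on single libraries. It was lost without Sham + VH replicate 1 (1.33, FDR = 0.0703), 2 (1.38, FDR = 0.0675) or 3 (1.35, FDR = 0.0558), and without TBI + VH replicate 1 (1.51, FDR = 0.0505) or 3 (1.41, FDR = 0.0661). Without Sham + VH replicate 4 the fold change was 2.41 (FDR = 0.000279).

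H2-Eb1, the E beta chain, had 0.875, 0.864, 0.845 and 2.33 CPM in Sham + VH, and 1.04, 0.744, 0.66 and 0.527 CPM in Sham + CD. It had 3.19, 2.29, 4.56 and 3.51 CPM in TBI + VH, and 6.91, 2.13, 4.28 and 4.23 CPM in TBI + CD. Again Sham + VH replicate 4 reached the lowest injured libraries, while the 7 other sham libraries lay below all injured ones. The rise was 1.47 ± 0.36 in TBI + VH (FDR = 0.0104), 1.82 ± 0.36 in TBI + CD (FDR = 0.0017) and 4.01-fold over both arms (2.0 ± 0.27, FDR = 1.55e-05).

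Cd74, the invariant chain that escorts the class II chains, had 1.54, 1.81, 1.35 and 5.27 CPM in Sham + VH, and 2.22, 1.53, 0.914 and 1.01 CPM in Sham + CD. It had 6.68, 5.42, 9.91 and 6.33 CPM in TBI + VH, and 15, 5.46, 7.67 and 9.58 CPM in TBI + CD. All injured libraries were above all sham libraries, although Sham + VH replicate 4 came close to the lowest of them. Cd74 rose by 1.51 ± 0.39 in TBI + VH (FDR = 0.0139), by 1.90 ± 0.39 in TBI + CD (FDR = 0.00217) and 4.31-fold over both arms (2.11 ± 0.29, FDR = 1.95e-05). The TBI + VH call was lost without Sham + VH replicate 1 (1.33, FDR = 0.0544) or 2 (1.38, FDR = 0.0505), or without TBI + VH replicate 3 (1.30, FDR = 0.0591). Without Sham + VH replicate 4 it was 2.18 (FDR = 0.00046).

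The chains of the peptide exchange factor H2-DM responded unequally. H2-DMb1, the beta chain, had 1.58, 1.08, 1.06 and 1.99 CPM in Sham + VH, and 0.947, 0.744, 0.711 and 0.658 CPM in Sham + CD. It had 4.68, 2.07, 3.6 and 2.36 CPM in TBI + VH, and 3.65, 2.96, 3.65 and 2.88 CPM in TBI + CD. The injured and sham libraries did not overlap. H2-DMb1 rose by 1.16 ± 0.25 in TBI + VH (FDR = 0.00406), by 1.19 ± 0.25 in TBI + CD (FDR = 0.00286) and 3.08-fold over both arms (1.62 ± 0.19, FDR = 3.05e-06). H2-DMb1 and H2-DMb2 are close copies, and how reads that match both were counted is not given in the sources used here.

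H2-DMa, the alpha chain, had 17.1, 14.0, 14.9 and 14.6 CPM in Sham + VH, and 17.8, 13.8, 14.7 and 16.6 CPM in Sham + CD. It had 18.2, 20.2, 17.5 and 14.9 CPM in TBI + VH, and 20.2, 18.4, 18 and 17.5 CPM in TBI + CD. The 4 TBI + CD libraries lay above the 4 Sham + VH libraries, and those of TBI + VH overlapped them. The differences were 0.23 ± 0.10 in TBI + VH (FDR = 0.143), 0.29 ± 0.10 in TBI + CD (FDR = 0.0477) and 1.17-fold over both arms (0.22 ± 0.07, FDR = 0.0153), the last 2 below the fold threshold. Without Sham + VH replicate 1 the TBI + CD difference passed both thresholds (0.35, FDR = 0.03).

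Ciita, the transactivator, was near the limit of these libraries, and 3.45% of its exon bases overlap Dexi on the opposite strand. Its counts were 3, 1, 2 and 4 reads in Sham + VH, and 2, 0, 1 and 4 reads in Sham + CD. They were 13, 2, 13 and 13 reads in TBI + VH, and 13, 3, 12 and 18 reads in TBI + CD. In each injured group 3 libraries stood above all sham libraries, while replicate 2 overlapped them. For 13 reads in TBI + VH replicate 1 the exact 95% interval was 0.293 to 0.94 CPM of the total count, and for 2 reads in replicate 2 it was 0.0123 to 0.367 CPM, intervals that cover counting error only. The count of 0 allows up to 0.119 CPM (3 counts in that library). Ciita rose by 1.99 ± 0.64 in TBI + VH (FDR = 0.0468), by 2.18 ± 0.63 in TBI + CD (FDR = 0.0232) and 4.77-fold over both arms (2.25 ± 0.47, FDR = 0.00107). The TBI + VH call was lost without any 1 of 10 of the 16 libraries: Sham + VH replicates 1, 2, 3 and 4, TBI + VH replicates 1, 3 and 4, Sham + CD replicates 1 and 3, and TBI + CD replicate 3 (1.76 to 2.25, FDR = 0.0532 to 0.126). In TBI + CD it was lost without Sham + VH replicate 2 (1.95, FDR = 0.0652) or 3 (2.11, FDR = 0.0519), or TBI + CD replicate 4 (1.91, FDR = 0.0779). Among the 6 single-region sets, Ciita passed the filter on low counts in this one only, the set in which its injured libraries were high.

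**Figure D2:**
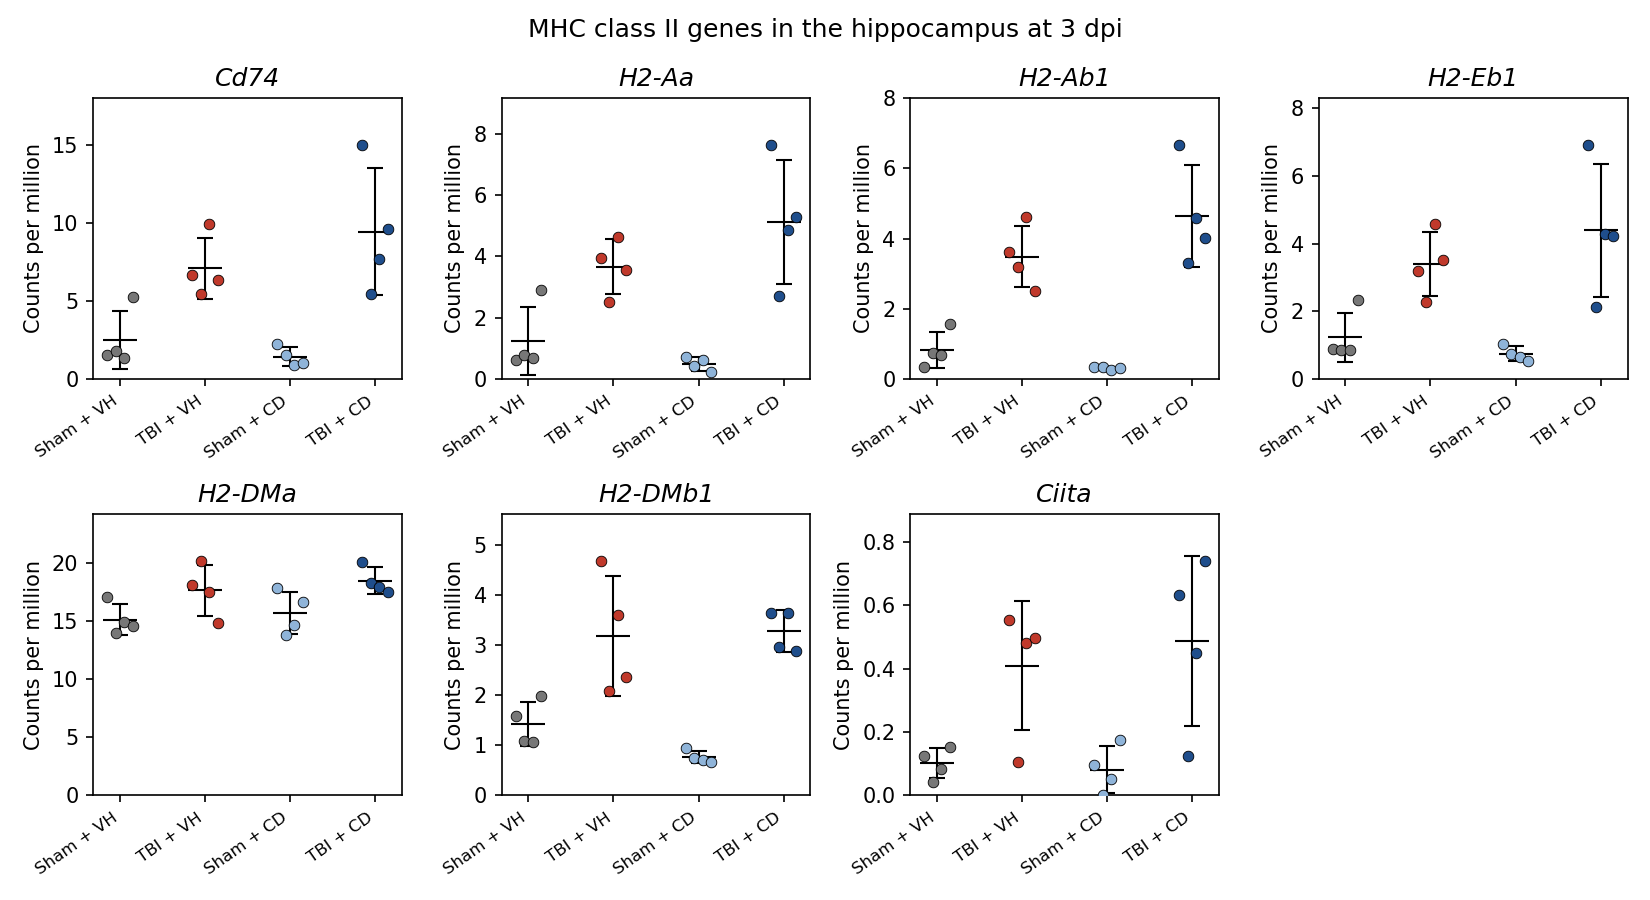
CPM of each class II gene in the 16 hippocampal libraries at 3 dpi, one panel per gene, with points for libraries and bars for the mean ± SD of 4 in each group. All 8 injured libraries lie above all 8 sham libraries for Cd74, H2-Ab1 and H2-DMb1, the other 4 genes overlap, and Sham + VH replicate 4 is the high sham point for Cd74 (5.27), H2-Aa (2.9) and H2-Eb1 (2.33). The share of all genes separating in this way was not counted.

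H2-Ab1, H2-Eb1 and H2-DMb1 kept their TBI + VH calls whichever of the 16 libraries was left out, and over both arms all 6 genes kept theirs in each of the 16 refits. DESeq2 called 5 members in TBI + VH, losing Ciita (2.02, FDR = 0.0528), 6 in TBI + CD and 6 over both arms.

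Candesartan was compared with vehicle within sham and within injured mice. In sham hippocampus at 3 dpi the class II genes were not called in either direction, where 1.5% of all genes were called. H2-Ab1 was lower in every Sham + CD library (0.254 to 0.331 CPM) than in any Sham + VH library (0.333 to 1.57 CPM), a difference of -1.42 ± 0.44 (FDR = 0.115). H2-DMb1 did not overlap either (-0.89 ± 0.29, FDR = 0.143). How many of all genes separated in this way was not counted, so no weight is put on it. Choroid plexus epithelium markers moved with these differences, summing to 207.3 to 6945 CPM in the vehicle libraries and 63.53 to 118.5 CPM in those given candesartan. With the choroid plexus score as a covariate, H2-Ab1 differed by -0.92 (FDR = 0.727) and H2-DMb1 by -0.82 (FDR = 0.716). Since the choroid plexus sums of these groups did not overlap, that fit cannot tell the drug from choroid plexus content. The part of choroid plexus was not tested. H2-Aa differed by -1.37 ± 0.53 (FDR = 0.223), Cd74 by -0.81 (FDR = 0.419) and H2-Eb1 by -0.73 (FDR = 0.449). edgeR called 0 of 7 members, 3 had an unadjusted p below 0.05, and DESeq2 called 1, H2-Ab1. Over all genes, 2511 of 16756 tested by edgeR had an unadjusted p below 0.05.

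In injured hippocampus at 3 dpi the drug groups could not be told apart. TBI + CD against TBI + VH gave 0.39 ± 0.36 for Cd74, 0.47 ± 0.38 for H2-Aa, 0.40 ± 0.28 for H2-Ab1 and 0.35 ± 0.33 for H2-Eb1. The differences were 0.06 ± 0.10 for H2-DMa, 0.03 ± 0.24 for H2-DMb1 and 0.19 ± 0.50 for Ciita, all at an FDR of 0.999. Called by edgeR were 0 of 7 members and 0% of all genes, with 0 members and 732 of 16756 genes below an unadjusted p of 0.05. DESeq2 called 0 members. The test of whether injury acted differently with candesartan also called 0% of genes and 0 of 7 members, with 3 members and 2196 of 16756 genes below an unadjusted p of 0.05. H2-Ab1 differed by 1.82 ± 0.52 (FDR = 0.13), the 1 member that DESeq2 called, and H2-Aa by 1.84 (FDR = 0.224).

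Other genes of the pathway and markers of cells that can carry class II were counted from lists. In TBI + VH hippocampus at 3 dpi, 10.7% of all genes tested were called and 8.99% were higher, with a median log2 fold change of -0.01 over all genes tested. There 2 of 3 tested non-classical class II genes rose: H2-Ob by 1.51 and H2-Oa by 1.29, the chains of H2-DO, which restrains H2-DM. H2-DMb2 differed by 0.92 (FDR = 0.165), and H2-Eb2 had 0 to 2 reads. Of 10 tested genes of peptide loading and processing 9 rose (median 1.1), with Ctsd at 1.61 ± 0.19 (FDR = 1.5e-05), Lgmn at 1.24 ± 0.14 (FDR = 9.95e-06) and Ctsb at 0.85 ± 0.11 (FDR = 4.93e-05), all lysosomal proteases. March1, a ubiquitin ligase that removes class II from the surface, was at 0.01. The factors that recruit Ciita showed no call, 0 of 7: Rfx5 was at 0.01, Rfxank at 0.18, Rfxap at -0.11, Creb1 at 0.03, Nfya at 0.21, Nfyb at -0.03 and Nfyc at -0.02. Of 11 tested interferon gamma signalling genes 4 rose (median 0.39), among them the receptor chain Ifngr1 (0.76), the transcription factor Irf8 (1.85) and the induced GTPase Gbp2 (1.84), whereas Ifng itself had 0 to 1 reads. Of 4 tested costimulatory genes 2 rose, Cd86 by 1.93 and Icosl by 0.32.

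The same comparison moved several cell type lists. All 8 microglial markers rose (median 1.09), their sum running from 315.3 to 339.3 CPM in Sham + VH libraries and from 618.9 to 883.2 CPM in TBI + VH libraries. Of 7 border macrophage markers 4 rose (Cbr2, Cd163, Ms4a7 and Siglec1), with sums of 5.111 to 7.942 CPM and 8.881 to 17.06 CPM. Of 4 tested monocyte markers 2 rose, Ccr2 by 3.81 and S100a4 by 3.9. Among 4 tested dendritic cell markers Itgax rose by 2.28 and Flt3 fell by 0.37, with summed levels of 14.24 to 14.98 CPM in Sham + VH libraries and 12.84 to 15.32 CPM after injury. Xcr1 and Clec9a of the dendritic cell list, Ms4a1 of the B cell list and Cd3e of the T cell list, named after their values were seen, had at most 4 reads in any library of this set. Cd209a, another dendritic cell marker, reached 8 reads in Sham + VH and 15 in TBI + CD, and Cd79a, another B cell marker, had 2 to 8 reads. Of the B cell list, 1 gene was tested, Cd79b, which rose by 2.53, and of the T cell list 1 gene, which was not called. The part of these cells in the class II result was not tested.

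Markers of border tissue also differed between libraries. All 10 markers of choroid plexus epithelium were lower in TBI + VH than in Sham + VH (median -5.48), their sum running from 207.3 to 6945 CPM in the sham libraries and from 23.91 to 174.7 CPM in the injured ones. With the choroid plexus score as a covariate, Cd74 stood at 2.47, H2-Aa at 2.36, H2-Ab1 at 2.58 and H2-Eb1 at 2.24 in TBI + VH, all called, while the calls of H2-DMb1 (1.25 ± 0.39, FDR = 0.0982) and Ciita (2.49 ± 0.9, FDR = 0.162) were lost. The choroid plexus sums of TBI + VH and Sham + VH did not overlap, so the adjusted values cannot separate choroid plexus from group. No conclusion is drawn from the lost calls, and the part of choroid plexus was not tested. For TBI + CD it ended the call of Ciita (2.54, FDR = 0.0513), and over both arms it ended none of the 6. Of 6 markers of meningeal fibroblasts 1 fell in TBI + VH, Ogn by 1.78, and 0 rose. The summed level of meningeal fibroblasts was 154.1 CPM in Sham + VH replicate 4, the library with high class II genes, and 77.01 to 110.6 CPM in the other 3. With the meningeal fibroblast score as a covariate all 6 genes stayed called over both arms, Cd74 at 2.32, H2-Aa at 2.71, H2-Ab1 at 3.08, H2-Eb1 at 2.16, H2-DMb1 at 1.69 and Ciita at 2.36.

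At 29 dpi the main fit called a rise in the hippocampus for Cd74 and H2-Eb1, over both drug arms only. With the choroid plexus covariate Cd74 was called in TBI + VH as well. Injury over both arms called 1.62% of 16832 genes, 1.59% higher, against 2 of the 6 members tested. Single groups against Sham + VH called 0 of 6 members each: TBI + VH (0.529% of genes called, 1 member below an unadjusted p of 0.05), TBI + CD (0.119%, 0 members) and Sham + CD (0%, 1 member). In that order 1343, 1245 and 810 of 16832 genes had an unadjusted p below 0.05. TBI + CD against TBI + VH called 0% of genes and 0 members, with 0 below an unadjusted p of 0.05, and so did the test of the difference in injury effect between the drug arms. Genes below that p numbered 893 and 890. DESeq2 called 0 members in these 5 comparisons and 3 over both arms.

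Cd74 had 5.68, 0.912, 2.45 and 2.12 CPM in Sham + VH, and 0.792, 1.37, 2.3 and 2.04 CPM in Sham + CD. It had 6.41, 7.77, 4.08 and 6.75 CPM in TBI + VH, and 4.11, 7.19, 5.29 and 2.7 CPM in TBI + CD. Sham + VH replicate 1 lay within the injured range, and the 7 other sham libraries lay below all injured ones. The 2 lowest sham values rested on 7 and 5 reads, in the 2 shallowest libraries of the set. Injury raised Cd74 2.36-fold over both arms (1.24 ± 0.28, FDR = 0.0246), and the difference in TBI + VH alone was 1.02 ± 0.38 (FDR = 0.444). The call was lost without Sham + VH replicate 3 (1.17, FDR = 0.0582) or 4 (1.19, FDR = 0.0539), TBI + VH replicate 4 (1.23, FDR = 0.0533), Sham + CD replicate 2 (1.18, FDR = 0.0674), or TBI + CD replicate 2 (1.12, FDR = 0.0645) or 3 (1.22, FDR = 0.0545).

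H2-Eb1 had 2.26, 0.781, 1.29 and 1.51 CPM in Sham + VH, and 0.475, 0.823, 1.18 and 0.937 CPM in Sham + CD. It had 2.2, 2.56, 2.22 and 2.0 CPM in TBI + VH, and 1.88, 3.36, 1.65 and 1.53 CPM in TBI + CD. Sham + VH replicate 1 was the single sham library within the injured range. The change of 1.81-fold (0.85 ± 0.21, FDR = 0.0437) was called over both arms, and was kept only when the library left out was Sham + VH replicate 1, Sham + CD replicate 3 or TBI + CD replicate 4. In the other 13 of 16 refits it lay between 0.69 and 0.90 with an FDR of 0.0521 to 0.108. A replicate block in the fit also ended the call (0.83, FDR = 0.0771).

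Neither gene of the A chains was called. H2-Ab1 had 2.12, 0, 0.881 and 1.21 CPM in Sham + VH, and 0.95, 0.343, 1.02 and 1.02 CPM in Sham + CD. It had 2.02, 3.47, 1.93 and 1.94 CPM in TBI + VH, and 1.83, 2.99, 2.41 and 1.49 CPM in TBI + CD. Sham + VH replicate 1 again lay among the injured libraries and the 7 others below them, and the count of 0 in replicate 2 allows up to 0.368 CPM (3 counts in that library). The difference of 1.18 ± 0.33 for H2-Ab1 (FDR = 0.0848) was called without Sham + VH replicate 1 (1.48, FDR = 0.0156), by DESeq2 (1.21, FDR = 0.0123) and with the choroid plexus covariate (1.22, FDR = 0.0108). For H2-Aa it was 0.88 ± 0.37 (FDR = 0.35), for H2-DMb1 0.26 ± 0.22 (FDR = 0.759) and for H2-DMa -0.00. H2-DMa was higher in each Sham + CD library than in any Sham + VH library (14.8 and 13.5 CPM on average), by 0.13 ± 0.08 (FDR = 0.941). The share of all genes separating like this was not counted. Ciita had 0 to 12 reads and was not tested.

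Border tissue markers moved with this result, in a comparison that called 1.62% of all genes. Of 6 markers of meningeal fibroblasts 2 rose over both arms at 29 dpi, Col1a2 by 0.89 (FDR = 0.0437) and Slc6a13 by 0.90 (FDR = 0.0425), with summed levels of 81.36 to 172 CPM (TBI + VH) and 127.7 to 221 CPM (TBI + CD) against 74.75 to 148 CPM (Sham + VH) and 62.03 to 106.4 CPM (Sham + CD). With the meningeal fibroblast score in the fit, Cd74 was at 0.51 (FDR = 0.666) and H2-Eb1 at 0.34 (FDR = 0.818), and 0 members were called. This score entered after the data had been seen. Markers in it rose with injury themselves, so the fit cannot tell injury from border tissue. The part of border tissue in the class II rise was not tested. Of 7 border macrophage markers 4 rose, Siglec1 by 2.63, Ms4a7 by 1.34, Cd163 by 0.94 and Mrc1 by 0.73, and of 8 microglial markers 2 rose. Of 4 tested dendritic cell markers 1 rose, Itgax, which activated microglia also express, by 3.93. Flt3 differed by -0.23 (FDR = 0.205) and Zbtb46 by -0.07 (FDR = 0.928), and Xcr1 and Clec9a had at most 4 reads in any hippocampal library. Cd209a had 0 to 13 reads in Sham + VH, 1 to 6 in Sham + CD, 0 to 10 in TBI + VH and 1 to 13 in TBI + CD. Of 10 tested genes of peptide loading and processing 4 rose, among them Ctss, the protease that trims the invariant chain, by 0.61. Among other lists of the pathway, 0 of 3 tested non-classical genes, 2 of 11 interferon gamma signalling genes (Gbp2 by 1.10 and Irf8 by 0.44) and 0 of 7 enhanceosome factors were called. The costimulatory genes are not given for this comparison.

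The injury effect over both arms was compared directly between the time points in the 32 hippocampal libraries, where 8.39% of genes were called and 7.92% were greater at 3 dpi. Of 7 members 4 were called by edgeR, all greater at 3 dpi, and 3 by DESeq2. The difference of log2 fold changes was 1.81 ± 0.44 for H2-Ab1 (FDR = 0.00519), 1.60 ± 0.52 for H2-Aa (FDR = 0.0419), 1.17 ± 0.36 for H2-Eb1 (FDR = 0.0302) and 1.37 ± 0.29 for H2-DMb1 (FDR = 0.00137). For Cd74 it was 0.88 ± 0.42 (FDR = 0.194), for Ciita 1.68 ± 0.78 (FDR = 0.181) and for H2-DMa 0.24 ± 0.09 (FDR = 0.0778). H2-Aa lost its call by DESeq2 (1.49, FDR = 0.0744) and with a replicate block (1.52, FDR = 0.059), and in 20 of 32 refits that each left out 1 library (1.29 to 1.66, FDR = 0.0501 to 0.112). The 12 libraries whose removal kept it were, at 3 dpi, Sham + VH replicate 4, TBI + VH replicate 2, Sham + CD replicate 1 and TBI + CD replicate 2, and, at 29 dpi, replicates 2 and 3 of Sham + VH and replicates 1 and 2 of each other group. H2-Eb1 lost its call in 9 refits (FDR = 0.0504 to 0.0802), those without replicate 3 of Sham + VH or TBI + VH, replicate 4 of Sham + CD or replicate 1 of TBI + CD at 3 dpi, and without replicate 1 of Sham + VH, 4 of TBI + VH, 3 of Sham + CD or 3 or 4 of TBI + CD at 29 dpi. Without the 3 dpi Sham + VH replicate 4, Cd74 was called as well. H2-Ab1 and H2-DMb1 kept their calls in every refit.

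**Figure D3:**
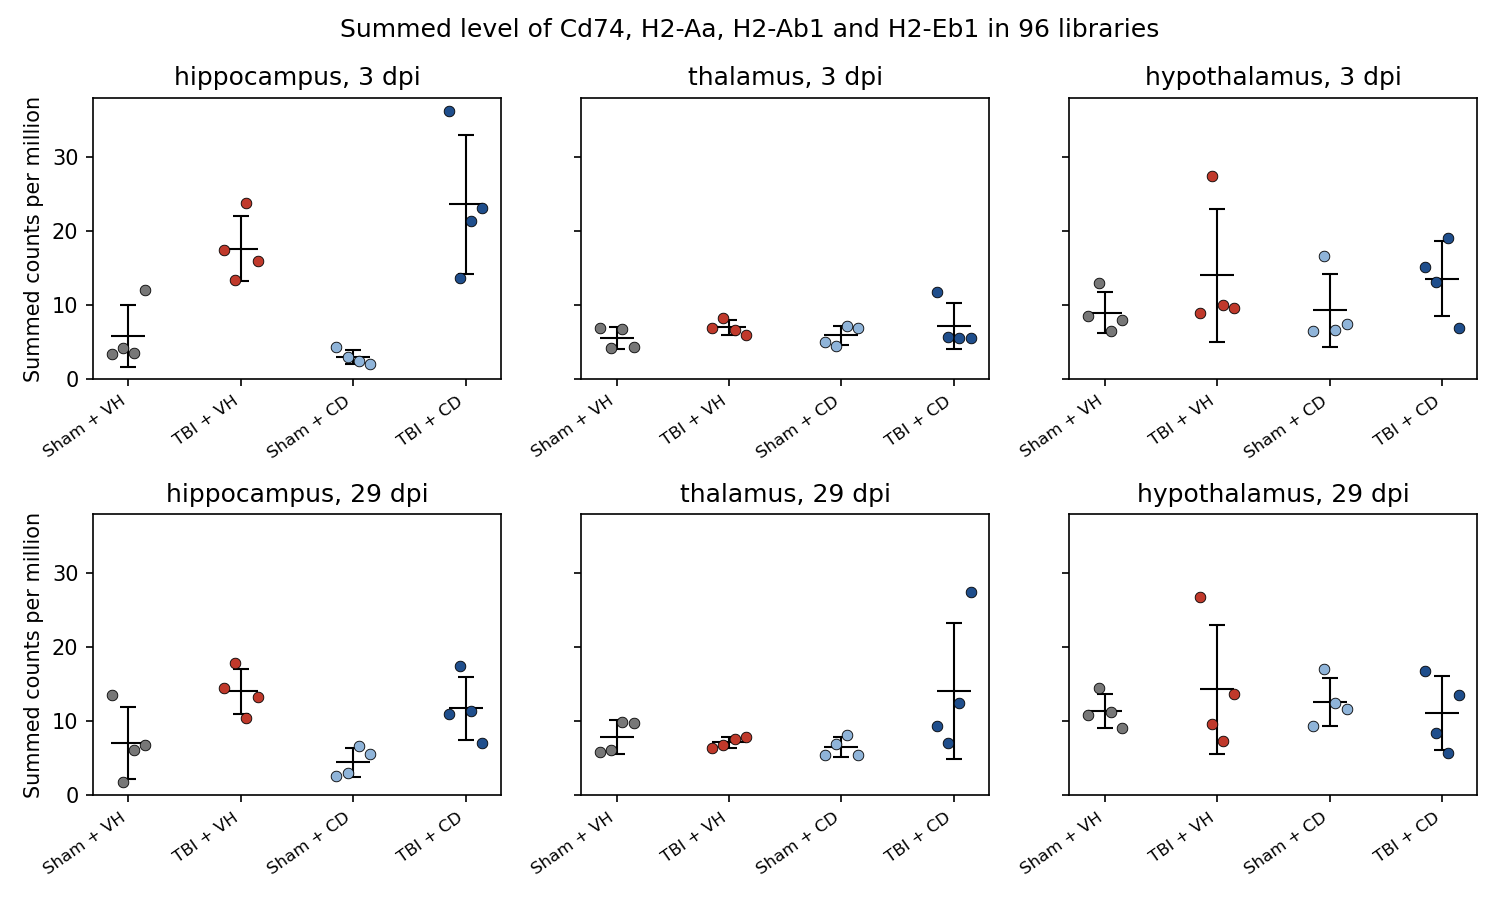
Summed CPM of Cd74, H2-Aa, H2-Ab1 and H2-Eb1 in each of the 96 libraries, one panel per region and time point, with the mean ± SD of 4 libraries in each group. Hippocampal sums at 3 dpi are 13.4 CPM or more in all injured libraries, and single high libraries appear in the other regions.

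The hippocampal rise at 3 dpi was not seen at that size in the thalamus or hypothalamus. The summed level of Cd74, H2-Aa, H2-Ab1 and H2-Eb1 in hippocampus was 5.79 ± 4.19 CPM in Sham + VH and 2.96 ± 0.983 in Sham + CD, against 17.6 ± 4.39 in TBI + VH and 23.6 ± 9.39 in TBI + CD. In thalamus the means were 5.53, 5.89, 6.96 and 7.11 CPM in the same order, and in hypothalamus 8.97, 9.28, 14.0 and 13.5 CPM. The difference of injury effects between hippocampus and thalamus, over both arms, was called for 10.1% of genes (8.59% greater in hippocampus) and for 6 of 7 members, 1 of them Ciita, which entered this fit through the injured hippocampal libraries, with 1 to 9 reads a library in the other regions, so that its call adds no support. As for the region levels, libraries of different regions that may share a brain are treated as independent. The difference was 1.82 ± 0.42 for Cd74 (FDR = 0.00155), 2.11 ± 0.50 for H2-Aa (FDR = 0.00211), 2.29 ± 0.44 for H2-Ab1 (FDR = 0.00017) and 1.88 ± 0.36 for H2-Eb1 (FDR = 0.000184). H2-DMb1 differed by 1.15 ± 0.25 (FDR = 0.000839) and Ciita by 2.26 ± 0.63 (FDR = 0.00893), whereas H2-DMa differed by 0.08. Against hypothalamus 11.4% of genes were called (9.51% greater in hippocampus) and again 6 of 7 members, Ciita under the same limit, with differences from 1.10 for H2-DMb1 (FDR = 0.00106) to 2.06 for H2-Ab1 (FDR = 0.000255).

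Within the thalamus at 3 dpi the class II genes were not called in any comparison. Of 6 tested members 0 were called for TBI + VH (0.298% of all genes called), TBI + CD (0.418%), Sham + CD (0%), TBI + CD against TBI + VH (0%) and injury over both arms (0.907%), by edgeR as by DESeq2. Members below an unadjusted p of 0.05 numbered 0, 1, 0, 0 and 2 in that order. Genes below it by edgeR numbered 643, 1197, 1152, 344 and 1080 of 16762 tested. Over both arms H2-DMb1 differed by 0.45 (FDR = 0.308) and H2-Ab1 by 0.66 (FDR = 0.55). Mean Cd74 was 2.41 ± 0.581 CPM (Sham + VH) and 3.00 ± 0.758 CPM (TBI + VH).

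Within the hypothalamus at 3 dpi edgeR and DESeq2 called 0 of 6 tested members as well. All genes called came to 0% for TBI + VH, TBI + CD, Sham + CD and TBI + CD against TBI + VH, and to 0.0177% over both arms. Members below an unadjusted p of 0.05 numbered 1, 1, 0, 0 and 3, the last being H2-Ab1 (0.89), H2-Eb1 (0.56) and H2-DMb1 (0.51), each at an FDR of 0.665. Of 16946 genes tested by edgeR, 577, 653, 361, 353 and 1242 were below that p in the same order. TBI + VH replicate 2 stood apart, with Cd74 at 12.6 CPM against 3.32 to 4.57 CPM in the 3 other libraries. Its summed level of meningeal fibroblasts was 146.7 CPM and of border macrophages 12.17 CPM, and the part of these in its class II level was not tested.

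At 29 dpi neither of these regions showed a called member. In thalamus 0% of genes and 0 of 6 members were called for TBI + VH, TBI + CD, Sham + CD, TBI + CD against TBI + VH and both arms, by edgeR as by DESeq2, with 1, 3, 0, 5 and 3 members below an unadjusted p of 0.05. All genes below it by edgeR numbered 419, 815, 540, 380 and 1145 of 16957. TBI + CD replicate 4 was the highest library, with Cd74 at 13.7 CPM against 3.12 to 6.7 CPM in the other 3. Its summed levels were 125.4 CPM for meningeal fibroblasts, 1447 CPM for choroid plexus epithelium, 53.21 CPM for dendritic cells and 462.1 CPM for microglia, and the part of these was not tested. Within the dendritic cell list, Itgax reached 27.33 CPM in this group and Flt3 was at 18.32 to 21.21 CPM, whereas Xcr1 and Clec9a had at most 3 reads. Cd209a had 2 to 7 reads in this group (mean 0.2253 CPM). Its means were 0.1095 CPM in Sham + VH, 0.1055 in TBI + VH and 0.06782 in Sham + CD. H2-DMa was higher in each TBI + CD library (8.27 to 8.71 CPM) than in any Sham + VH library (5.94 to 7.61 CPM), by 0.33 ± 0.10 (FDR = 0.759). H2-Aa was higher in each TBI + CD than in any TBI + VH library, by 1.13 ± 0.40 (FDR = 1), with TBI + CD replicate 4 at 5.21 CPM, the other 3 at 1.59 to 1.81 CPM and the TBI + VH libraries at 1.05 to 1.28 CPM. How often genes in general separated like these was not counted.

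In hypothalamus at 29 dpi the share of genes called was 0.00583% for TBI + VH and over both arms, and 0% for TBI + CD, Sham + CD and TBI + CD against TBI + VH. Called by edgeR and by DESeq2 were 0 of 6 members in each, and 0 had an unadjusted p below 0.05. Injury differences over both arms ran from -0.16 to 0.23. TBI + VH replicate 1 was the high library, with Cd74 at 12.2 CPM against 3 to 6.01 CPM in the others and a summed level of meningeal fibroblasts of 128 CPM. Compared between regions at 29 dpi, the injury effect called 0.0669% of genes for hippocampus minus thalamus and 0.184% for hippocampus minus hypothalamus. Of 6 tested members 0 were called by edgeR or DESeq2, and 1 and 3 had an unadjusted p below 0.05, among them Cd74 for hippocampus minus hypothalamus (1.19, FDR = 0.497). Over all genes, 1034 and 991 of 17935 had such a p by edgeR.

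**Figure D4:**
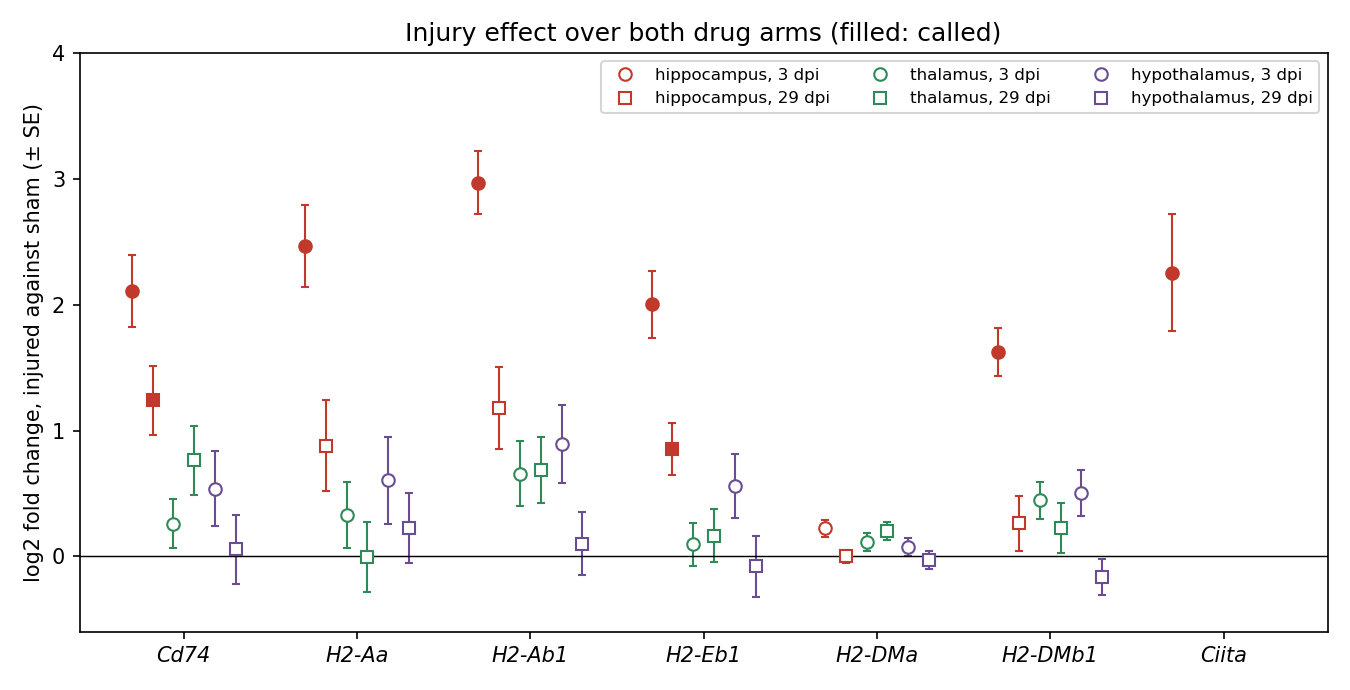
Log2 fold change of injury over both drug arms ± SE for each class II gene in the 6 combinations of region and time point, with filled points for called differences; Ciita was tested in hippocampus at 3 dpi only. The 6 genes that rose are filled in hippocampus at 3 dpi, from 1.62 for H2-DMb1 to 2.97 for H2-Ab1, and Cd74 (1.24) and H2-Eb1 (0.85) at 29 dpi.

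The members did not all vary together. Across the 96 libraries, centred by region and time point, pairs among Cd74, H2-Aa, H2-Ab1 and H2-Eb1 correlated at r = 0.82 to 0.915. H2-DMb1 correlated with these 4 at 0.731 to 0.754, Ciita at 0.459 to 0.577, and H2-DMa with the other members at 0.134 to 0.279. After centring within each group, which removes injury and drug, the 4 genes still correlated at 0.66 to 0.853 and H2-DMa ran from -0.137 to 0.0372. These values describe libraries that share regions, depth and, before group centring, treatment, and the low counts of Ciita weaken any correlation of it.

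The mean log2 CPM of the 4 genes was compared with that of each marker list. Centred by region and time point (n = 96), it correlated with border macrophages at 0.845, microglia at 0.68, meningeal fibroblasts at 0.608 and choroid plexus epithelium at 0.189. Centred within groups, the values were 0.713, 0.198, 0.789 and 0.492. Taken region by region (n = 32 each, hippocampus, thalamus and hypothalamus in that order), the group-centred values were 0.685, 0.634 and 0.814 for border macrophages, and 0.0506, 0.639 and -0.00581 for microglia. They were 0.802, 0.78 and 0.841 for meningeal fibroblasts, and 0.572, 0.658 and 0.2 for choroid plexus epithelium. All come from the same libraries and describe them.

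**Figure D5:**
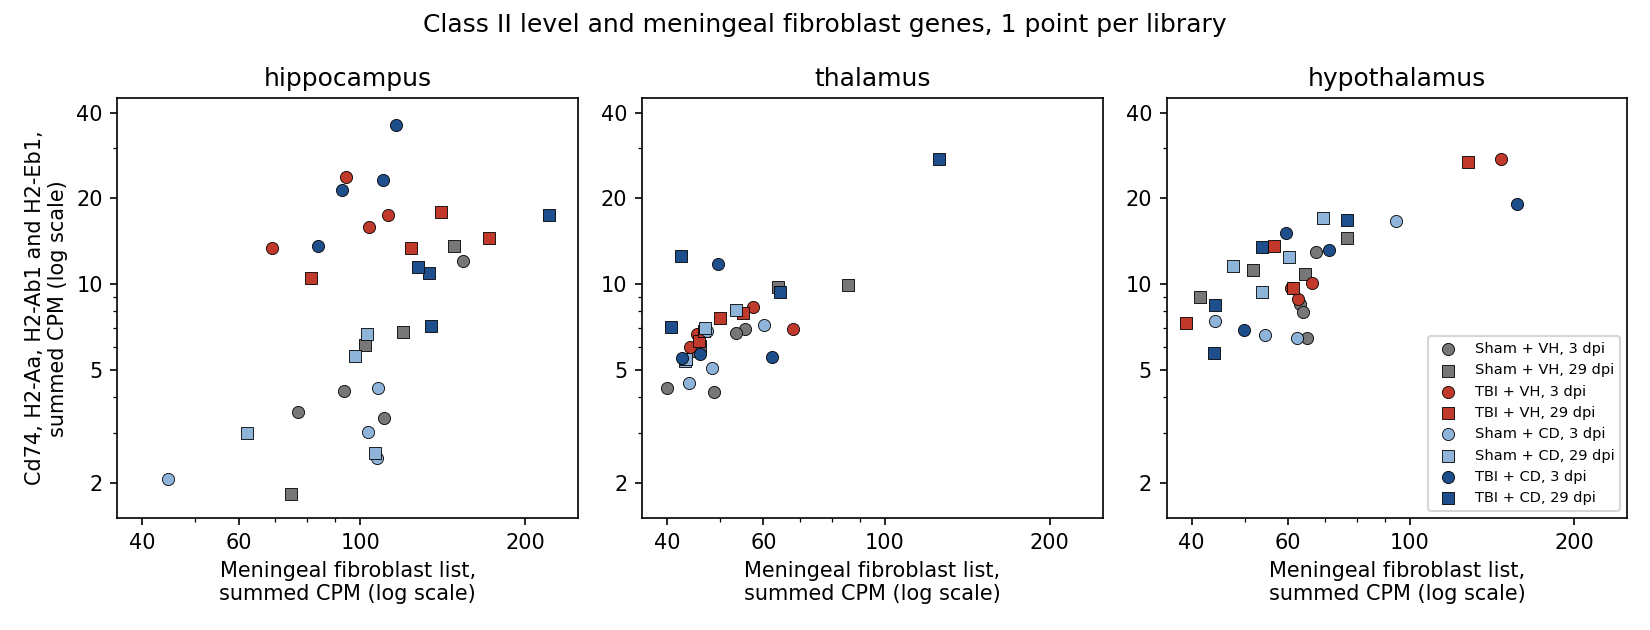
Summed CPM of Cd74, H2-Aa, H2-Ab1 and H2-Eb1 (vertical, log scale) against summed CPM of the meningeal fibroblast list (horizontal, log scale), one point per library and one panel per region. The mean log2 levels of the 2 lists, centred within groups, correlate at r = 0.802 in hippocampus, 0.78 in thalamus and 0.841 in hypothalamus.

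Other genes were ranked by how closely they followed the mean log2 CPM of Cd74, H2-Aa, H2-Ab1 and H2-Eb1, as the correlation over 96 libraries centred by region and time point among 15161 genes of at least 1 CPM on average. Among the first 8 were the complement regulator Serping1 (0.871), the macrophage lysozyme Lyz2 (0.845), Ifi27l2a (0.824), Ifitm1 (0.823), the chemokine Cxcl16 (0.821), Plscr2 (0.816) and Pdpn (0.815). With group centring the first 8 included Slc6a20a (0.8), Colec12 (0.773), Serpind1 (0.756), Igf2 (0.75), Col1a2 (0.747), Fmod (0.747) and Slc13a4 (0.745). For Ciita the first were Ctsl (0.596), Hsd3b7 (0.592), Nfe2l2 (0.588), Apobec1 (0.579), Calu (0.571), Adam17 (0.57), Ube2l6 (0.568) and Lyz2 (0.565), values from 0 to 18 reads a library that single out no gene.

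Library totals ran from 17150610 to 31253784 counts at 3 dpi and from 6663629 to 38589791 at 29 dpi. The shallowest were in hippocampus at 29 dpi: Sham + CD replicate 1 (6663629), Sham + VH replicates 2 (8159341) and 4 (10409397) and TBI + VH replicate 2 (11283868). Over the 96 libraries the members spanned 5 to 415 reads for Cd74, 1 to 192 for H2-Aa, 0 to 154 for H2-Ab1, 3 to 154 for H2-Eb1, 75 to 487 for H2-DMa, 3 to 110 for H2-DMb1 and 0 to 18 for Ciita. Region labels matched their markers: the hippocampal neuron list summed to 564 to 1127 CPM in hippocampus and at most 278.5 CPM elsewhere, and the thalamic list to 1424 to 2880 CPM in thalamus and at most 554.2 CPM elsewhere. The hypothalamic list summed to 739.3 to 1601 CPM in hypothalamus and at most 660.5 CPM elsewhere, the highest of these in thalamus.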

How the data were processed

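RNA from perfused mouse tissue was made into TruSeq Stranded mRNA libraries and sequenced paired-end. The deposited values are raw read counts per gene, which the authors obtained with bcl2fastq, MapSplice alignment to mm10 and HTSeq 0.9.1, and tested with DESeq2 1.16.1. The annotation and strand setting of the counting are not given in the sources used here. Gene symbols were trimmed of spaces, after which 63 symbols occurred more than once, none of them a member. The number of columns without a sample was 0.

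Counts were filtered with filterByExpr, scaled by TMM and tested with the quasi-likelihood F test of edgeR 4.0.16 in R 4.3.3, in sets of the 16 libraries of a region and time point. Regions were compared in the 48 libraries of a time point, and time points in the 32 hippocampal libraries. All p-values were adjusted by Benjamini-Hochberg over all genes tested, in 43 comparisons. A gene was called at an FDR below 0.05 with an absolute log2 fold change above 0.32. Correlations used log2 CPM with a prior count of 2. The tests were checked on simulated counts. Alternatives were DESeq2 1.42.0, RLE scaling, no filter, the FDR alone, only the libraries compared, a replicate block, a choroid plexus covariate, CPM from plain totals, and leaving out each library. A meningeal fibroblast covariate was added after the data had been seen. The members and lists were chosen with earlier results of these data known. All members were named; of each pathway list the 3 called genes with the highest mean CPM were to be named, and other list genes and all cell markers were chosen after their values were seen. No 2 libraries of the same group held identical counts. Some genes of the lists and rankings are not reported here. Sequences were taken from RefSeq (GRCm38.p6).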

Additional observations from a re-analysis of the deposited data

Results flagged for a closer look

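Within groups of 4 libraries, 21 of 168 gene and group combinations held 1 library whose gap to its nearest neighbour exceeded Dixon's critical share of the group's range, where chance gives about 1 in 20. Several fell in the same libraries. In hippocampus at 3 dpi, Sham + VH replicate 4 was high for Cd74 (5.27 CPM), H2-Aa (2.9 CPM) and H2-Eb1 (2.33 CPM). In hypothalamus at 3 dpi, TBI + VH replicate 2 was high for Cd74 (12.6 CPM), H2-Aa (6.04 CPM), H2-Ab1 (4.42 CPM) and H2-Eb1 (4.34 CPM), Sham + VH replicate 2 for H2-Aa (2.59 CPM) and Sham + CD replicate 2 for Cd74 (7.11 CPM). In thalamus at 3 dpi, Cd74 was high in TBI + VH replicate 2 (4.14 CPM) and TBI + CD replicate 1 (4.91 CPM), and H2-Eb1 stood apart in Sham + CD replicate 3 (1.74 CPM).

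At 29 dpi, H2-Ab1 was high in hippocampal TBI + VH replicate 2 (3.47 CPM) and low in Sham + CD replicate 2 (0.343 CPM). In thalamus H2-Aa was high in TBI + CD replicate 4 (5.21 CPM) and H2-DMb1 low in Sham + VH replicate 1 (0.671 CPM). In hypothalamus H2-Ab1 was high in TBI + VH replicate 1 (4.51 CPM) and H2-Eb1 in Sham + VH replicate 2 (3.25 CPM). Ciita was low in hippocampal TBI + VH replicate 2 at 3 dpi (0.106 CPM, 2 reads) and replicate 1 at 29 dpi (0 reads, 0.0 CPM), and high in thalamic Sham + CD replicate 2 at 29 dpi (0.235 CPM, 3 reads).

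The injury effect over both arms differed between regions at 3 dpi by the test of the difference itself (edgeR, adjusted over all genes). Hippocampus minus thalamus gave 1.82 for Cd74, 2.11 for H2-Aa, 2.29 for H2-Ab1, 1.88 for H2-Eb1, 1.15 for H2-DMb1 and 2.26 for Ciita. Hippocampus minus hypothalamus gave 1.55, 1.84, 2.06, 1.42, 1.1 and 1.91 in the same order. In hippocampus, 3 dpi minus 29 dpi gave 1.6 for H2-Aa, 1.81 for H2-Ab1, 1.17 for H2-Eb1 and 1.37 for H2-DMb1.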

How the results depend on the processing

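Of 269 counts of called members under alternatives other than leaving out a library, 262 stayed within 1.5 times the reported count and 7 moved; of 315 log2 fold changes 298 kept direction and call, 9 lost the call, 4 gained it and 4 reversed. The counts that moved were these. DESeq2 called 1 member (H2-Ab1) for Sham + CD and 1 for the injury by drug test in hippocampus at 3 dpi, in place of 0. The choroid plexus covariate called 1 (Cd74) for TBI + VH in hippocampus at 29 dpi. Fitting only the libraries compared called 1 (Cd74) between thalamus and hypothalamus at each time point. For injury over both arms in hippocampus at 29 dpi, the meningeal covariate left 0 of 2 and the replicate block left 1, Cd74, with H2-Eb1 at 0.83 (FDR = 0.0771). There H2-DMa turned from -0.00 to 0.00 without the filter, 0.00 with the choroid covariate and 0.06 with the meningeal one, and H2-DMb1 to -0.09 with the meningeal covariate. The replicate block also ended the H2-Aa call between time points (1.52, FDR = 0.059), as did DESeq2 (1.49, FDR = 0.0744), and changed no other call. Same-numbered libraries did not deviate together in every pair (median correlations of 0.00678 to 0.129 within the 6 sets, against -0.0483 to 0.0368 for other pairs, and above 0.1 in 4 to 15 of 24 pairs). Between regions the medians were 0.0545 at 3 dpi and 0.0927 at 29 dpi, against -0.0306 and -0.0361, with 17 and 23 of 48 pairs above 0.1. Same-numbered libraries were thus more alike in some sets, and a pairing by mouse or batch may remain. The labels give no pairing, and the numbers were not taken to pair libraries in the main fits. The block changed no count of called members between regions. The cause of these changes was not tested.

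Leaving out 1 library moved 29 of 1024 counts. The number called ran from 3 to 6 for TBI + VH in hippocampus at 3 dpi, from 0 to 3 for both arms at 29 dpi, from 1 to 5 between hippocampus and hypothalamus at 3 dpi, from 1 to 2 at 29 dpi and from 2 to 5 between time points. H2-DMa at 29 dpi over both arms ran from -0.02 to 0.02. The low counts of Ciita and the hippocampal libraries of lowest depth limit what can be read at 29 dpi.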
